A study of Homo sapiens with 24 samples.

Results

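The subject is the difference between 2 acute myeloid leukaemia (AML) cell lines in their transcriptional response to decitabine (DAC), measured 144 h after the start of treatment. For every gene, the log2 change of DAC-treated over untreated ELF-153 cells was compared with the same change in UCSD-AML1 cells, and the difference between both changes (ELF-153 minus UCSD-AML1) was the quantity tested. It rests on 12 of the 24 RNA-seq libraries of the series, 3 in each of 4 groups: ELF-153 with DAC, ELF-153 untreated, UCSD-AML1 with DAC and UCSD-AML1 untreated. Of 52994 genes in the table, 17180 passed the filter on low values and were tested, and 5131 of them (29.9%) had a difference at an adjusted p below 0.05.

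ELF-153 and UCSD-AML1 are established human AML lines. All cultures, treated and untreated, were grown in RPMI medium that held human GM-CSF at 5 ng/ml, a cytokine that myeloid lines of this kind need for growth, beside fetal calf serum (20%) and antibiotics (1%). DAC was given at 100 nM and renewed with the medium on each of 4 days, and the cells of this table were taken at 144 h. The 3 libraries of a group are technical triplicates of 1 culture condition, so the spread between them, and every p-value below, says how far these libraries differ and not how far independent experiments would.

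Decitabine is a deoxycytidine analogue that is built into DNA during replication, where it traps DNA methyltransferases, so that cytosine methylation is lost as cells divide. Promoters and repeat elements silenced by methylation, among them cancer-testis genes and endogenous retroviruses, can then be transcribed. Double-stranded RNA from such elements can be sensed by cytosolic receptors, which switch on interferon-stimulated genes through transcription factors that include STAT2 and IRF9.

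Depth at 144 h lay between 15096909 and 28528757 assigned reads per library, and 16.6% to 58.4% of the scaled value in a library was mitochondrial ribosomal RNA. In each group 1 library stood apart from the other pair: replicate 2 of ELF-153 with DAC, replicate 1 of untreated ELF-153, replicate 3 of UCSD-AML1 with DAC and replicate 3 of untreated UCSD-AML1. The mitochondrial ribosomal share was 42.8%, 53.6% and 44.6% in ELF-153 with DAC, 38.2%, 16.6% and 18.1% in untreated ELF-153, 58.4%, 56.4% and 38.7% in UCSD-AML1 with DAC and 51.6%, 52.1% and 44.5% in untreated UCSD-AML1. Its part in the differences was not tested apart from a fit with this share as a covariate, which called 2468 genes, 2177 of them among the 5131. Without the 4 libraries, 7146 genes were called, 4353 of them among the 5131. In each group the library farthest from the other pair was left out, so the spread that remains is small by selection. The p-values of that fit, here and below, tend to be too small and its calls too many. Markers of other cell types were present in part. Of 17 lymphoid markers in the table, the B-cell gene MS4A1, the T-cell gene CD8A and the NK-cell gene KLRD1 had 0 reads in all 4 groups, whereas CD4 had 1953 to 3141 reads in a group, CD79A 173 to 929, PAX5 127 to 1394, CD2 8 to 2159 and CD3D 2 to 502. Of 14 stromal, endothelial and epithelial markers, LUM, EPCAM and KRT19 had 0 reads, whereas PDGFRB had 510 to 1009 reads in a group, KRT8 and KRT18 80 to 477, and CDH5 1 or 2 in ELF-153 and 9245 with DAC and 3646 without in UCSD-AML1. Of the granule genes of neutrophil precursors, ELANE had 0 reads, MPO at most 2, AZU1 at most 36 and CTSG 44 to 271 in a group. The platelet integrin gene ITGA2B, GATA1 and CD33 had reads in all 4 groups.

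With DAC, 38.8% of the tested genes changed in ELF-153 and 46.7% in UCSD-AML1. In ELF-153, 3559 genes rose (20.7%) and 3106 fell (18.1%), and in UCSD-AML1 3437 rose (20%) and 4594 fell (26.7%). The difference was higher in ELF-153 for 3401 genes (19.8%) and lower for 1730 (10.1%). The median difference over all tested genes was 0.21, from a median change of 0.11 in ELF-153 and -0.14 in UCSD-AML1, so that on the deposited scale the typical gene lies slightly above 0. With the scaling of TMM or DESeq2 the median moved to between -0.02 and -0.00, and the share of called genes that were higher was 48.5% (edgeR with TMM), 53.2% (DESeq2) and 52.5% (limma with TMM), against 66.3% on the deposited scale. All differences below are log2 values on the deposited scale and are to be read against 0.21.

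The genes with a called difference were sorted by the calls within each line. Opposite changes came in both forms: 265 genes (1.54% of tested genes) rose in ELF-153 and fell in UCSD-AML1, and 130 (0.757%) fell in ELF-153 and rose in UCSD-AML1. A change called in ELF-153 and not in UCSD-AML1 was an increase for 931 genes (5.42%) and a decrease for 571 (3.32%). A change called in UCSD-AML1 and not in ELF-153 was an increase for 724 (4.21%) and a decrease for 1534 (8.93%). "Not called" covers small changes too: with the further limit that the other line moved by less than 0.5 on the log2 scale, these 4 classes held 542, 434, 520 and 861 genes. The rest rose in both lines, more in ELF-153 (293, 1.71%) or more in UCSD-AML1 (140, 0.815%), fell in both, more in ELF-153 (92, 0.536%) or more in UCSD-AML1 (190, 1.11%), or were called in neither line alone (261, 1.52%).

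The class sizes depend on single libraries. Without the 4 libraries that stand apart, in the fit whose spread is small by selection, the opposite classes held 1307 and 366 genes in place of 265 and 130. Leaving out 1 library at a time, the first opposite class held 149 genes without treated ELF-153 replicate 2, 160 and 167 without untreated UCSD-AML1 replicates 1 and 2, 169 without untreated ELF-153 replicate 3, 431 without untreated UCSD-AML1 replicate 3 and 833 without untreated ELF-153 replicate 1. The second held 59 and 68 without untreated ELF-153 replicates 2 and 3, 68 without treated ELF-153 replicate 2, 80 to 86 without any one of untreated UCSD-AML1 replicates 1 and 2, treated UCSD-AML1 replicate 3 and treated ELF-153 replicates 1 and 3, 198 without untreated ELF-153 replicate 1 and 218 without untreated UCSD-AML1 replicate 3. With the mitochondrial ribosomal share as a covariate they held 159 and 59. The sizes of the classes are thus loose. Some named genes moved between classes too. Without the 4 libraries that stand apart, a change in the other line was called, in the opposite direction, for RSAD2, ITGA4, KIT, ZBTB33, MTHFD2, BCL2A1, CMPK1, BAX, JUND, AGMAT, SPON2, SLC7A1, NKG7 and POLR1A, and in the same direction for TOP2A, CXCL8, BIK, MT-CO3, SHISAL1 and KLF2. IFI16 was then called in both lines, C3orf80 lost its call in ELF-153 and EBI3 its call in UCSD-AML1. Genes with reads mainly in 1 group, such as CDKN2B and CD207, could not be tested there, since the filter asks for 3 libraries.

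**Figure D1:**
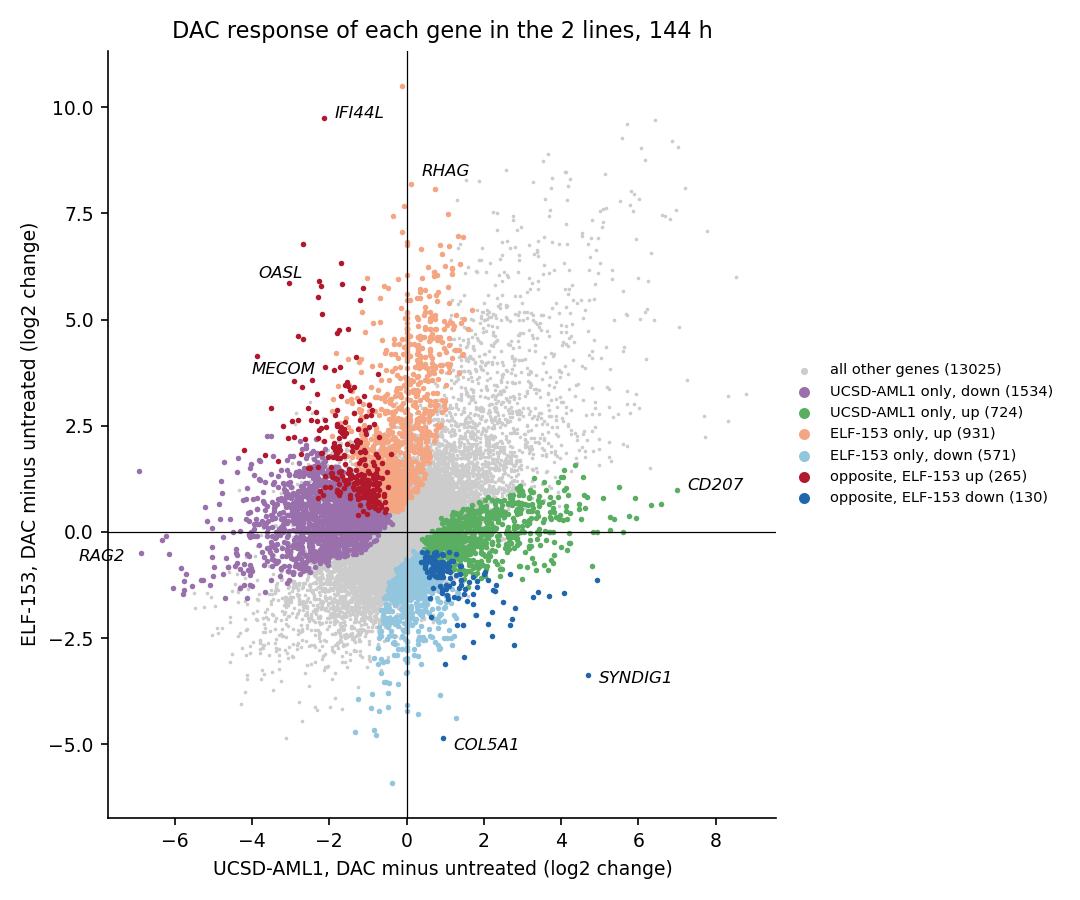
Each point is 1 of the 17180 tested genes, placed by its log2 change with DAC in UCSD-AML1 (horizontal axis) and in ELF-153 (vertical axis), and coloured by response class with the number of genes in the legend. The 265 genes that rose in ELF-153 and fell in UCSD-AML1 lie in the upper left quadrant and the 130 with the opposite pattern in the lower right.

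Most interferon-stimulated genes differed between the lines. Of 51 tested interferon-stimulated genes, 48 had a higher difference in ELF-153 and 0 a lower one (94.1% called beside 29.9% over all genes). The median difference was 3.86 against 0.21 over all genes. In ELF-153, 46 of the 51 rose, beside 20.7% of all genes, and 1, IFITM2, fell. In UCSD-AML1, 29 fell, beside 26.7% of all genes, and 1, GBP4, rose. In all, 27 rose in ELF-153 and fell in UCSD-AML1, which is 52.9% of the list and 10.2% of the 265 genes of that class, and 18 rose in ELF-153 without a call in UCSD-AML1. Without the 4 libraries that stand apart, 47 members had a higher difference and 33 changed in opposite directions. The summed level of the list lay at 65470 to 94400 scaled reads per library in ELF-153 with DAC and 17390 to 18830 in untreated ELF-153, against 71010 to 87400 in UCSD-AML1 with DAC and 120800 to 136800 in untreated UCSD-AML1. The ranges of both DAC-treated groups overlapped, while those of the untreated groups did not.

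Interferon-stimulated genes are switched on through the interferon-stimulated response element (ISRE), a pair of GAAA repeats bound by a complex that holds STAT2 and IRF9. Promoters from the RefSeq table (build GRCh38.p14) are shown to let the element be seen. They belong to the 3 members with the smallest adjusted p among those with a match to GAAANNGAAA. A match was thus the condition for being shown. Each runs from 250 bases before to 50 bases after the start, 5′ to 3′ on the gene's strand. Matches on either strand are in capitals.
RSAD2, chr2:6877527-6877826, plus strand: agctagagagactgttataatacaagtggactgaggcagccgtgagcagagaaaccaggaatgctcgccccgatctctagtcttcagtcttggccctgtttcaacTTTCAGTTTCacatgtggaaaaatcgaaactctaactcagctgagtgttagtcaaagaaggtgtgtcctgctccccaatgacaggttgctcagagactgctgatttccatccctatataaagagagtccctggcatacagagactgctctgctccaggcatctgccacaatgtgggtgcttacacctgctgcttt
MX1, chr21:41420308-41420607, plus strand: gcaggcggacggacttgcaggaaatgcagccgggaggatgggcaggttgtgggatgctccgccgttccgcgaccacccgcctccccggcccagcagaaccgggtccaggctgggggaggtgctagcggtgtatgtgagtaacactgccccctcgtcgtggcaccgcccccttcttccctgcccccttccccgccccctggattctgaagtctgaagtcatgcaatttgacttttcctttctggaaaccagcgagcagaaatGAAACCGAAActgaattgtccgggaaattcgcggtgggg
IFI44L, chr1:78620198-78620497, plus strand: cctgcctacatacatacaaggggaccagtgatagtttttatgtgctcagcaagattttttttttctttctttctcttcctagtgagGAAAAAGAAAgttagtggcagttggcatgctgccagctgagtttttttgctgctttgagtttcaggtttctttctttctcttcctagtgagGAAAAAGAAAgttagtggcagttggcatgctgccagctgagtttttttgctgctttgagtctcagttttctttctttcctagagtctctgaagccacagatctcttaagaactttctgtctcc

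In RSAD2 the match is on the minus strand, 145 bases before the start. In MX1 the match begins after the start. In IFI44L the same 10 letters occur at 2 places, the first 164 bases before the start. RSAD2 and MX1 have 2 and 3 promoters in the table, and the one shown for each was picked because it holds a match. Over the list, 42 of 51 genes had at least 1 promoter in the table, and 37 of their 57 promoters (64.9%) held GAAANNGAAA, compared with 1255 of all 35116 promoters (3.57%). A match describes letters only, and neither binding nor methylation was measured in these libraries.

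IFI44L, an interferon-stimulated gene of the antiviral response, had the largest difference among the protein-coding genes with opposite changes and a group mean of at least 100, with 1030, 2433 and 1320 scaled reads in ELF-153 with DAC and 1.45, 1.18 and 0 in untreated ELF-153. In UCSD-AML1 its levels were 1737, 1638 and 904 with DAC and 7665, 7964 and 3569 without. Treated and untreated libraries overlapped in neither line, and the DAC-treated groups of both lines overlapped with each other. The ratio in ELF-153, from 3 reads in the untreated libraries, was 1690 (95% counting interval 580 to 8220), whereas UCSD-AML1 fell by 2.13 ± 0.44 on the log2 scale (SE, limma adjusted p = 0.00188).

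OASL, an antiviral protein related to the oligoadenylate synthetases, had the smallest adjusted p of the list. Its levels were 497, 692 and 631 in ELF-153 with DAC and 9.44, 9.48 and 10.7 in untreated ELF-153, against 186, 148 and 214 in UCSD-AML1 with DAC and 830, 814 and 881 in untreated UCSD-AML1. No library of a treated group overlapped with its untreated group. The difference was 8.01 ± 0.27 (SE, limma adjusted p = 2.25e-09), from changes of 5.79 in ELF-153 and -2.22 in UCSD-AML1.

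IFIT1, which binds foreign RNA caps, had 909, 1514 and 1267 scaled reads in ELF-153 with DAC and 32.7, 10.7 and 7.47 without, and 726, 615 and 285 in UCSD-AML1 with DAC and 1746, 1782 and 1411 without. Its difference was 8.04 ± 0.65 (SE, limma adjusted p = 7.53e-06). The pseudogene IFIT1P1 had 93.2, 131 and 125 in ELF-153 with DAC and 2.9, 3.55 and 4.27 without, and 56.3, 64.7 and 29.3 in UCSD-AML1 with DAC and 182, 196 and 129 without. In both, treated libraries were above all untreated ones in ELF-153 and below all in UCSD-AML1, but the 2 copies are similar in sequence and how the counting split reads between them is uncertain.

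MX1, a dynamin-like GTPase that blocks viruses, changed in opposite directions with a smaller fall in UCSD-AML1: 187, 215 and 179 in ELF-153 with DAC and 16.7, 13 and 11.7 without, against 796, 770 and 874 in UCSD-AML1 with DAC and 1348, 1381 and 1347 without (difference 4.47 ± 0.24, SE, limma adjusted p = 1.52e-07). RSAD2, the antiviral enzyme viperin, had 5050, 7100 and 6480 in ELF-153 with DAC and 136, 101 and 109 without. In UCSD-AML1 it had 2251, 2085 and 2172 with DAC and 3503, 3288 and 2332 without. Treated RSAD2 libraries were all below the untreated ones in UCSD-AML1, but the change of -0.47 ± 0.19 did not pass the test (limma adjusted p = 0.063), which puts the gene among those called in ELF-153 alone. The change was -0.65 (limma adjusted p = 0.000531), opposite to that in ELF-153, when the 4 libraries that stand apart were left out. Its difference was 6.20 ± 0.27 (SE, limma adjusted p = 2.09e-08).

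The 6 members outside these 2 patterns were named after their values were seen. GBP4, SIGLEC1 and IFITM2 had no called difference (0.69, -0.03 and -0.31). GBP4 rose in both lines, by 1.77 in ELF-153 and 1.08 in UCSD-AML1, IFITM2 fell in ELF-153 by 0.69, and SIGLEC1 had 42 reads or fewer in every group. IFITM1 and UBE2L6 fell in UCSD-AML1 without a call in ELF-153, and IFI16 was called in neither line. The call of UBE2L6 (difference 0.96) ended in 10 of 23 alternative fits, that of IFI16 (3.86) in 9 and that of IFITM1 (2.08) in 1, and GBP4 gained a call in 3.

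**Figure D2:**
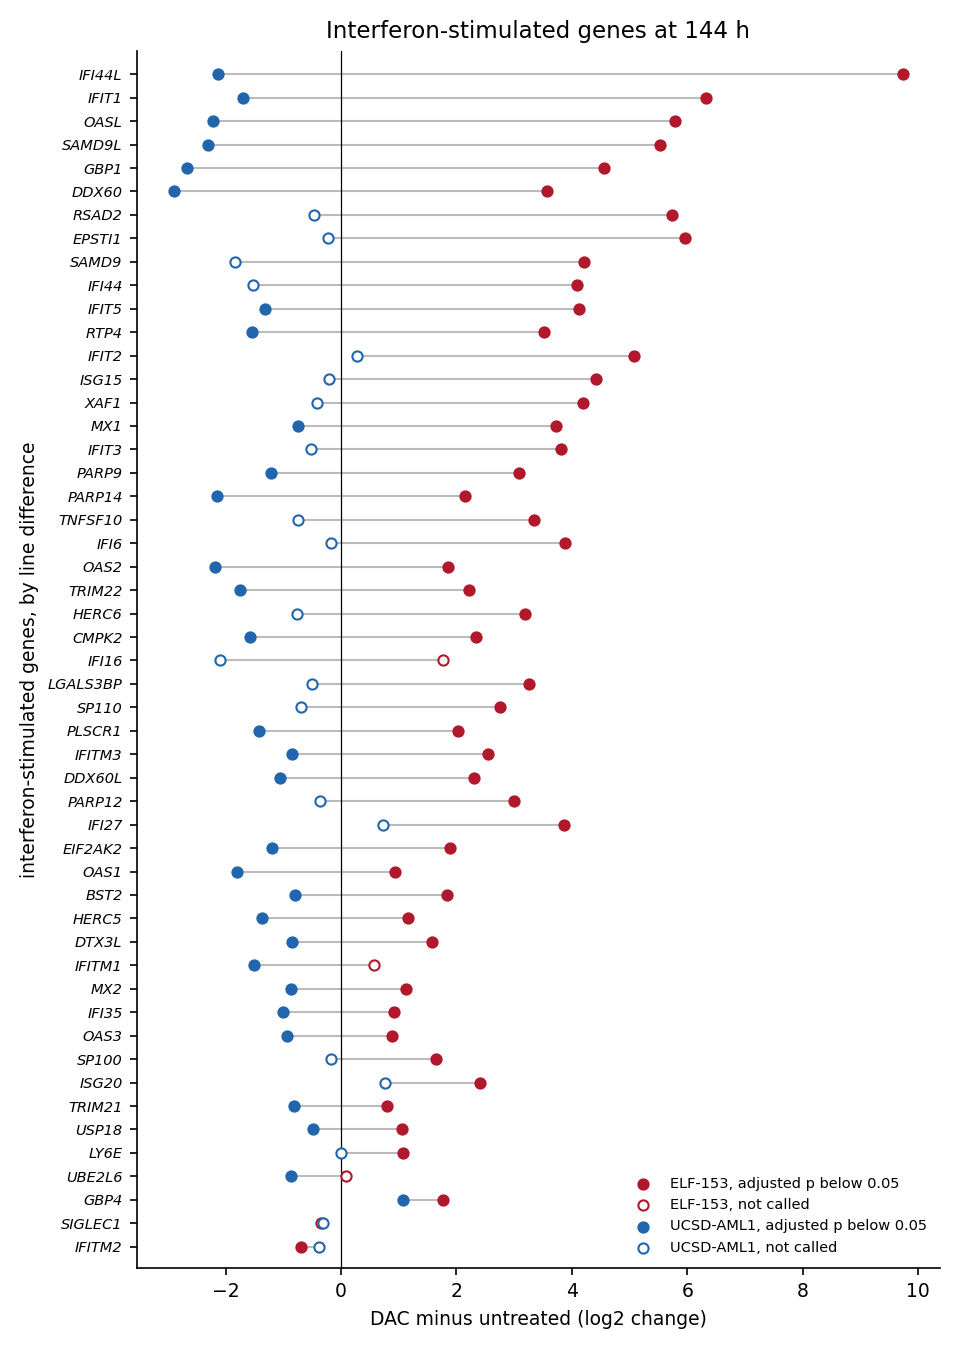
Log2 change with DAC of the 51 tested interferon-stimulated genes at 144 h, red for ELF-153 and blue for UCSD-AML1, ordered by the size of the line difference; filled points passed adjusted p below 0.05. Red points lie to the right of 0 for all but SIGLEC1 and IFITM2, and 29 blue points lie to the left of 0 and are filled.

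Of the factors that carry the interferon signal to the nucleus, STAT2 rose in ELF-153, with 1447, 1656 and 1510 scaled reads with DAC and 438, 413 and 435 without, and fell in UCSD-AML1, with 933, 856 and 838 with DAC and 1220, 1101 and 1149 without. The groups did not overlap, and the difference was 2.24 ± 0.19 (SE, limma adjusted p = 7.78e-06). IRF9 rose in ELF-153 (1003, 950 and 954 with DAC, 95.1, 129 and 87.6 without) and had 573, 471 and 495 in UCSD-AML1 with DAC and 360, 457 and 462 without, a change of 0.27 that was not called although the treated libraries were all above the untreated ones. The difference for IRF9 was 2.96 ± 0.26 (SE, limma adjusted p = 1.02e-05).

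Among further members of the list of STAT, IRF and RNA sensing genes, the RNA receptors DHX58 and IFIH1 also rose in ELF-153 (2.43 and 2.59) and fell in UCSD-AML1 (-1.26 and -1.60). IRF7 and IRF8 rose in ELF-153 by 2.33 and 3.76 with no call in UCSD-AML1. Of the 29 tested members, 4 passed the filter on low values only with the help of treated libraries, 3 of them only with those of ELF-153. A rise with DAC is built into these 4. In all, 10 of the 29 had a higher difference and 3 a lower one (44.8% called beside 29.9% over all genes, median 0.45). The 3 lower ones were MAVS, the adaptor of RNA receptors, STAT5A and SOCS3, an inhibitor of cytokine signalling (differences -1.02, -1.29 and -1.00). MAVS and STAT5A rose in UCSD-AML1 alone, and SOCS3 rose in both lines; the SOCS3 call ended in 7 of 23 alternatives. IFIH1, IRF7, IRF8 and these 3 were named after their values were seen.

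The HLA presentation lists were measured only in part. Of 19 listed class I genes 12 were tested, and 7 or 8 had 0 reads in a group. Of 14 listed class II genes 5 were tested, and 8 had 0 reads in every group. Among the tested members a difference was called for 25.0% of class I and 20.0% of class II genes, against 29.9% over all genes. Of the class I presentation genes, 1 had a higher and 2 a lower difference: B2M, the light chain of class I, with 1.90 ± 0.34 (SE, limma adjusted p = 0.00201), and CALR and NLRC5 with -0.96 and -0.80. B2M rose in ELF-153 by 1.65, and CALR, a chaperone of class I loading, rose in UCSD-AML1 by 1.14. NLRC5, the activator of class I genes, rose in both lines, by 1.88 in ELF-153 and 2.68 in UCSD-AML1, and its call of a difference ended in 12 of 23 alternatives, that of CALR in 8. Among the class II genes, CTSS, a lysosomal protease, had a higher difference (1.72) and the others had no call.

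Other genes with opposite changes came from several groups. SUCNR1, the receptor for succinate, had 696, 1337 and 770 scaled reads in ELF-153 with DAC and 37, 9.48 and 7.47 without, and 1184, 1010 and 509 in UCSD-AML1 with DAC and 5440, 5850 and 2164 without. ADAMTS3, a protease that trims procollagen, had 75, 103 and 93.3 in ELF-153 with DAC and 2.9, 3.55 and 6.41 without, and 18.5, 37.6 and 23.6 in UCSD-AML1 with DAC and 410, 453 and 304 without. In both genes the treated libraries were above all untreated ones in ELF-153 and below all in UCSD-AML1, with differences of 8.17 ± 0.78 and 8.02 ± 0.46 (SE). HIST1H4C, a histone H4 gene, had a difference of 9.46 ± 0.38 (SE, limma adjusted p = 7.37e-09) from 1824, 1633 and 2180 in ELF-153 with DAC and 10.2, 14.2 and 27.8 without, and 2801, 2538 and 2394 in UCSD-AML1 with DAC and 16155, 16551 and 16619 without. Histone H4 genes code for the same protein and share much of their sequence, so which copy its reads came from is uncertain. The noncoding gene AC104232.1 changed by 2.93 in ELF-153 and -3.51 in UCSD-AML1.

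MECOM, the gene of the stem cell transcription factor EVI1, was near 0 in untreated ELF-153 and high in UCSD-AML1. It had 12.8, 10.1 and 13.2 scaled reads in ELF-153 with DAC and 0.726, 0 and 0 without, and 1317, 1139 and 1172 in UCSD-AML1 with DAC and 3699, 3493 and 3187 without. The ratio in ELF-153, against 1 read in the untreated libraries, was 37.8 (95% counting interval 6.37 to 1530), and UCSD-AML1 fell by 1.52 ± 0.24 on the log2 scale (SE, limma adjusted p = 0.000229). Treated ELF-153 had 37 reads in all and treated UCSD-AML1 3910, so the levels of both lines stayed far apart. LMO2, a partner of TAL1 in stem and erythroid cells, had 862, 853 and 976 in ELF-153 with DAC and 290, 396 and 380 without, and 413, 332 and 464 in UCSD-AML1 with DAC and 890, 845 and 940 without. LMO2 was thus higher in ELF-153 than in UCSD-AML1 with DAC and lower without it. THY1, a surface marker of stem cells, had 32 reads in all in ELF-153 with DAC against 1 without, and fell by 1.10 in UCSD-AML1.

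SAMHD1, which cleaves deoxynucleotide triphosphates including that of decitabine, also changed in opposite directions. It had 1377, 1736 and 1554 scaled reads in ELF-153 with DAC and 271, 300 and 313 without, and 633, 508 and 766 in UCSD-AML1 with DAC and 1558, 1483 and 1013 without. No groups within a line overlapped, and the difference was 3.47 ± 0.29 (SE, limma adjusted p = 5.53e-06). SLC29A1, a nucleoside transporter, fell in ELF-153 by 2.47 and not in UCSD-AML1 (-0.08), and UCK2, a uridine-cytidine kinase, fell in both (-1.85 and -0.98). Of 13 genes of decitabine uptake and nucleotide metabolism, 3 had a higher difference (SAMHD1, TYMP and CMPK1) and 2 a lower one (SLC29A1 and UCK2). The called share was 38.5%, beside 29.9% over all genes. TYMP (3.51) and CMPK1 (1.73) were named after their values were seen. The calls of CMPK1, TYMP and UCK2 ended in 7, 1 and 2 of 23 alternatives. Further genes with opposite changes came from other lists: CPOX, an enzyme of haem synthesis (difference 3.44), CEBPE, a factor of granulocyte maturation (3.34), INPP5F, an inositol phosphatase gene with imprinted transcripts (2.50), and the p53 target TP53I3 (2.13).

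**Figure D3:**
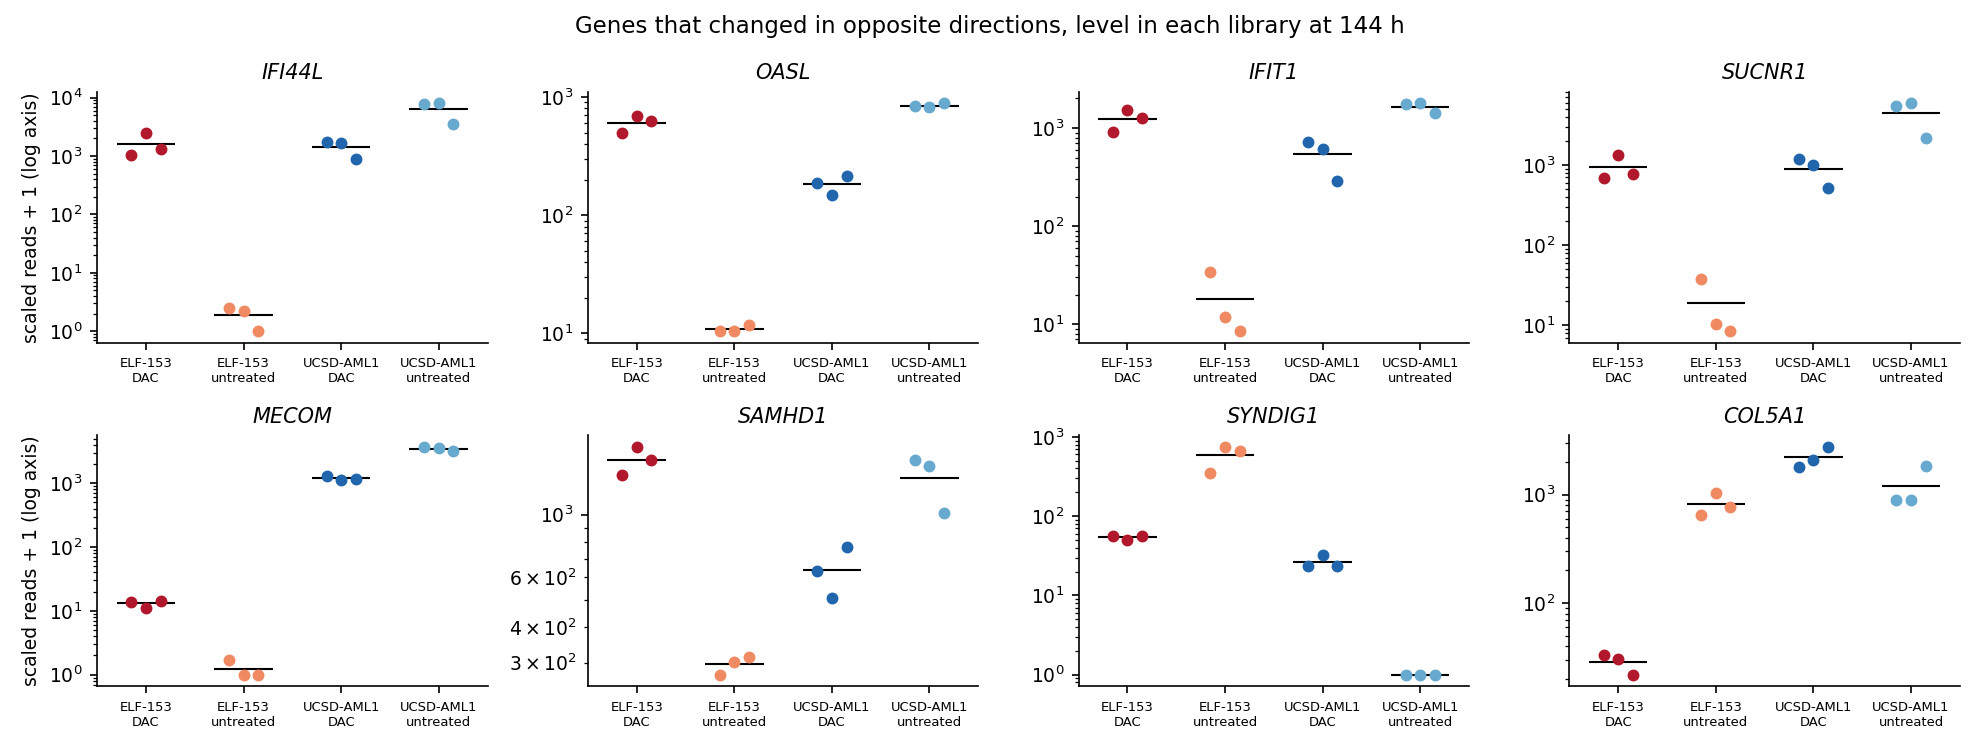
Level of 8 genes in each of the 12 libraries at 144 h, as scaled reads + 1 on a log axis; points are single libraries and the line is the mean of 3. The first 6 genes are higher with DAC than without in ELF-153 and lower in UCSD-AML1, SYNDIG1 and COL5A1 the other way round.

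Over all 265 genes that rose in ELF-153 and fell in UCSD-AML1, the median change was 1.40 and -1.28. The median level was 195 scaled reads in ELF-153 with DAC and 63.7 in untreated ELF-153, against 107 in UCSD-AML1 with DAC and 341 in untreated UCSD-AML1. These medians come from the same libraries as the changes that chose the genes and describe the class only. In 221 of the 265 the treated and untreated libraries overlapped in neither line, compared with 5069 of all tested genes (29.5%), but a called change in both lines was the condition for entering the class. The class held 234 protein-coding genes.

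The largest difference of the reverse pattern was that of SYNDIG1, a transmembrane protein of synapses. SYNDIG1 had 54.8, 49.5 and 56 scaled reads in ELF-153 with DAC and 348, 747 and 660 without. In UCSD-AML1 it had 22.7, 31.5 and 22.5 with DAC and 0 in all untreated libraries, a rise of at least 25.9-fold against a floor of 3 reads over the group. ELF-153 fell by 3.36 ± 0.31 on the log2 scale (SE, limma adjusted p = 2.56e-06), and the treated groups ended closer to each other than the untreated ones.

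COL5A1, a chain of fibrillar collagen, fell to 32, 29.4 and 20.9 scaled reads in ELF-153 with DAC, against 644, 1033 and 769 without. In UCSD-AML1 it had 1801, 2081 and 2754 with DAC and 889, 896 and 1837 without, and there the groups overlapped. The difference was -5.78 ± 0.42 (SE, limma adjusted p = 1.64e-06). NEURL1B, a ubiquitin ligase of Notch signalling, had 209, 260 and 301 in ELF-153 with DAC and 1069, 1242 and 1173 without, and 318, 361 and 372 in UCSD-AML1 with DAC and 42.4, 50.8 and 71.6 without, with no overlap in either line.

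IGSF10 and C3orf80 fell in ELF-153 by 1.13 and 1.51. IGSF10 rose in UCSD-AML1 to 118 reads in all, against 1 without DAC (ratio 110, 95% counting interval 19.4 to 4390), and C3orf80 rose there by 3.69. The fall of C3orf80 in ELF-153 was not called without the 4 libraries (-1.59, limma adjusted p = 0.0958). HLF, a transcription factor of blood stem cells named after its values were seen, had 50.3, 34.9 and 20.9 scaled reads in ELF-153 with DAC and 184, 268 and 173 without, and 12 reads in all in UCSD-AML1 with DAC against 1 without. The antisense genes PIK3CD-AS2 and IL12A-AS1 fell in ELF-153 by 1.41 and 2.16. The sources used here do not give how the counting used the strand. Their reads therefore cannot be told apart from those of the genes they overlap. Over the 130 genes the median change was -0.98 in ELF-153 and 0.97 in UCSD-AML1, and in 115 of them the groups overlapped in neither line (29.5% over all tested genes), under the same condition for entering the class.

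Genes that rose in ELF-153 without a call in UCSD-AML1 included several that untreated UCSD-AML1 already expressed. RHAG, a membrane protein of the Rh complex of red cells, had 830, 1424 and 1158 scaled reads in ELF-153 with DAC and 3.63, 4.74 and 1.07 without. In UCSD-AML1 it had 4024, 3634 and 2637 with DAC and 3456, 3876 and 2295 without, and the groups overlapped. STAB1, a scavenger receptor, had 762, 724 and 740 in ELF-153 with DAC and 1.45, 0 and 7.47 without, and 5218, 5408 and 7270 in UCSD-AML1 with DAC and 3248, 3068 and 4491 without. For STAB1 the treated libraries of UCSD-AML1 were above all untreated ones, although the change of 0.73 did not pass the test (limma adjusted p = 0.289). The differences were 8.08 ± 0.50 for RHAG and 7.35 ± 0.77 for STAB1 (SE, limma adjusted p = 5.42e-07 and 6.16e-05).

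MKRN3, an imprinted gene of the Prader-Willi region, and TMEM185B, a transmembrane protein gene, had near 0 reads in untreated ELF-153 only. MKRN3 had 216, 240 and 267 scaled reads in ELF-153 with DAC and 0.726, 2.37 and 0 without, a ratio of 252 (95% counting interval 85.9 to 1230), and 358, 304 and 349 in UCSD-AML1 with DAC and 370, 404 and 321 without. TMEM185B had 158, 244 and 212 in ELF-153 with DAC and 0.726, 2.37 and 0 without, a ratio of 215 (73.2 to 1050), and 409, 406 and 386 in UCSD-AML1 with DAC and 374, 355 and 460 without. In both genes treated ELF-153 reached a level below that of UCSD-AML1, where treated and untreated libraries overlapped.

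Other genes were near 0 in UCSD-AML1 with and without DAC. CDKN2B, which codes for the cell cycle inhibitor p15, had 138, 162 and 130 scaled reads in ELF-153 with DAC and 0.726, 0 and 1.07 without (ratio 228, 95% counting interval 62.6 to 1890), against 4 reads in all in UCSD-AML1 with DAC and 0 without. GPR15, a receptor that guides lymphocytes to the gut, had 116, 216 and 164 in ELF-153 with DAC and 0, 2.37 and 0 without (ratio 261, 71.8 to 2160), and 0 in every UCSD-AML1 library. The imprinted gene PEG10 had 88 reads in all in ELF-153 with DAC and 0 elsewhere, at least 29.9-fold higher. edgeR's quasi-likelihood test did not call the differences of CDKN2B, GPR15 and PEG10, for which UCSD-AML1 gives at most 4 reads, and DESeq2 did not call that of PEG10. A gene with no reads in UCSD-AML1 has no fold change there, so its difference is fixed by the pseudocount as well as by the rise in ELF-153. CDKN2B, GPR15 and PEG10 passed the filter on low values only with the treated ELF-153 libraries, so that their rise there is built in.

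The cancer-testis and germ-cell lists carried the same limit, and the filter on low values adds another. Of 40 cancer-testis genes 16 passed it, all of them only with the help of treated libraries and 11 only with those of ELF-153, so that a rise with DAC is built into these members. With that said, 16 were called up in ELF-153 and 13 in UCSD-AML1, and 13 had a higher difference, a count that supports no statement about the list. All 16 had 3 reads or fewer in at least 1 group. edgeR and DESeq2 each called 1 difference, and 7 were called without any 1 of the 3 treated ELF-153 libraries, where fewer members pass the filter. MAGEC2, named after its values were seen, rose in both lines, at least 198-fold in ELF-153 and at least 124-fold in UCSD-AML1, with a difference of 0.60 that was not called. SSX1 had 359 reads in all in ELF-153 with DAC and 0 without, and 8 in UCSD-AML1 with DAC and 1 without. GAGE1 and MAGEA10 had 68 and 54 reads in treated ELF-153, 0 in untreated ELF-153 and at most 1 in either group of UCSD-AML1; both belong to families with near-identical copies, and neither was called by edgeR or DESeq2. Of 42 germ-cell genes 12 passed the filter, 8 of them only with the help of treated libraries and 5 only with those of ELF-153, and the 11 with a higher difference are to be read in the same way; edgeR called 4, DESeq2 6, and 6 were called without any 1 of the 3 treated ELF-153 libraries. TDRD9, a helicase that silences transposons in germ cells, rose in both lines (335, 300 and 351 in ELF-153 with DAC and 2.18, 0 and 0 without; 396, 432 and 299 in UCSD-AML1 with DAC and 173, 141 and 135 without). The testis histone HIST1H1T rose by 5.56 in ELF-153, and TUBA3C had 153 reads in all in treated ELF-153 and at most 1 in the other groups, with no call by edgeR.

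Of 24 NF-kB target genes, 20 rose in ELF-153 and 16 in UCSD-AML1, and 6 had a higher and 1 a lower difference (median 0.36). The called share of 29.2% is near the 29.9% of all genes. Of the 24, 2 passed the filter on low values only with the help of treated libraries. CXCL8, the neutrophil chemokine IL-8, had 6584, 11052 and 7063 scaled reads in ELF-153 with DAC and 391, 205 and 155 without, against 9170, 9360 and 5727 in UCSD-AML1 with DAC and 5936, 7408 and 2357 without, where the groups overlapped. Its difference was 4.36 ± 0.60 (SE, limma adjusted p = 0.000437). EBI3 and NFKBIA rose in both lines, by 3.46 and 1.80 in ELF-153 and by 0.79 and 0.77 in UCSD-AML1. The lower one was ZC3H12A, an RNase that limits inflammation (-0.93, named after its values were seen, call ended in 9 of 23 alternatives). TNFAIP3, an inhibitor of NF-kB, rose by 2.64 in ELF-153 and 2.59 in UCSD-AML1, and its difference of 0.06 ± 0.24 was not called and changed sign with the scaling.

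Of 24 AP-1 and immediate early genes, 17 rose in each line, 4 had a higher difference and 4 a lower one (median -0.12). The called share was 33.3%, beside 29.9% over all genes. Of the 24, 4 passed the filter on low values only with the help of treated libraries. The transcription factor EGR3 had 103, 139 and 108 scaled reads in ELF-153 with DAC and 1.45, 2.37 and 1.07 without, against 40.3, 78.7 and 48.4 in UCSD-AML1 with DAC and 56.6, 90.1 and 126 without, with a difference of 6.18 ± 0.50 (SE, limma adjusted p = 4.84e-06). ATF3, NR4A2 and KLF2 were the other higher ones. The lower ones were the phosphatase genes DUSP4 and DUSP1 and the AP-1 related genes JUND and IER2, with differences of -2.01, -0.92, -0.94 and -0.94. NR4A2, KLF2, DUSP1, JUND and IER2 were named after their values were seen. Of 23 alternatives, the call ended in 1 for DUSP4, 3 for ATF3, 6 each for NR4A2, KLF2 and DUSP1, 9 for JUND and 11 for IER2.

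Among granulocyte and monocyte genes, 10 of 23 had a higher difference and 0 a lower one (43.5% called beside 29.9% over all genes, median 0.85). In ELF-153 13 rose and 4 fell, and in UCSD-AML1 8 rose and 8 fell. Of the 23, 6 passed the filter on low values only with the treated ELF-153 libraries, so that their rise there is built in. The summed level was 10960 to 14740 scaled reads per library in ELF-153 with DAC and 3074 to 4278 without, against 2879 to 3079 in UCSD-AML1 with DAC and 2861 to 2995 without. CYBB, the catalytic subunit of the phagocyte oxidase, had 685, 1177 and 836 in ELF-153 with DAC and 20.3, 11.8 and 1.07 without, and 276, 273 and 224 in UCSD-AML1 with DAC and 172, 138 and 69.2 without. S100A9, a calcium-binding protein of neutrophils, had 6771, 7851 and 9790 in ELF-153 with DAC and 1379, 1803 and 2219 without. It rose by 0.59 in UCSD-AML1. In treated ELF-153 S100A9 made up most of the summed level of the list. For both genes all treated libraries were above all untreated ones in either line, although the change of CYBB in UCSD-AML1 (1.11) was not called.

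The 571 decreases called in ELF-153 without a call in UCSD-AML1 had a median difference of -1.46. SHISAL1, a gene related to the Shisa family of transmembrane proteins, had 12.8, 14.7 and 8.78 scaled reads in ELF-153 with DAC and 297, 357 and 401 without, and 5.04, 8.75 and 6.76 in UCSD-AML1 with DAC and 12.4, 18.2 and 8.35 without. EPHA1, an ephrin receptor, had 8.23, 16.5 and 8.78 in ELF-153 with DAC and 84.2, 133 and 88.6 without, and 18.5, 24.5 and 18 in UCSD-AML1 with DAC and 18.6, 14.4 and 13.1 without. In both genes the treated libraries were below all untreated ones in ELF-153 and overlapped with them in UCSD-AML1. The differences were -3.97 ± 0.48 and -3.50 ± 0.47 (SE, limma adjusted p = 0.000131 and 0.000291). AGMAT, SPON2 and C4orf50 also fell in ELF-153 (-2.49, -2.67 and -4.67), but each had at most 13 reads in a group of UCSD-AML1, so little could be seen there. The difference of C4orf50 was not called by edgeR or DESeq2, and that of SPON2 was lost with the mitochondrial ribosomal share as a covariate (adjusted p = 0.179) and without 1 library in each of 3 cases: untreated UCSD-AML1 replicate 1 (adjusted p = 0.0502), untreated ELF-153 replicate 3 (0.0508) and treated ELF-153 replicate 2 (0.0521).

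Stem and progenitor genes split both ways: 5 of 21 had a higher difference and 5 a lower one (47.6% called beside 29.9% over all genes, median 0.11). The higher ones were MECOM, LMO2, THY1, KIT and HOXB4, and the lower ones HLF, EGFL7, SPINK2, MYC and RUNX1; HOXB4, HLF, EGFL7, SPINK2 and RUNX1 were named after their values were seen. EGFL7, a secreted factor of vessels and stem cells, had 49.4, 20.2 and 38.4 scaled reads in ELF-153 with DAC and 335, 561 and 387 without, and 523, 432 and 539 in UCSD-AML1 with DAC and 535, 489 and 743 without. Treated EGFL7 libraries were below all untreated ones in ELF-153 and overlapped with them in UCSD-AML1. MYC, the growth regulator, had 23.8, 18.4 and 23.1 in ELF-153 with DAC and 45.7, 61.6 and 49.1 without, and 79.8, 80.5 and 88.9 in UCSD-AML1 with DAC and 66.3, 76.7 and 87.1 without. Its difference was -1.34 ± 0.32 (SE, limma adjusted p = 0.00958), and the call ended with the mitochondrial ribosomal share as a covariate (adjusted p = 0.0747). RUNX1 rose in UCSD-AML1 by 1.34 and had a change of 0.10 in ELF-153. SPINK2, with at most 3 reads in a group of UCSD-AML1, and HOXB4 lost their calls in 12 and 5 of 23 alternatives. CD34 fell in both lines (-1.52 and -1.02) without a called difference (-0.50 ± 0.29), which was called without retained-intron and processed transcripts (adjusted p = 0.0133), and GATA2 had no called change in either line (0.03 and 0.12).

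The largest class, a decrease called in UCSD-AML1 alone, held 10 of the mitosis genes. Of its 1534 genes, 967 were protein-coding and 429 were processed pseudogenes. Among the 12049 genes without a called difference, 1733 were processed pseudogenes, a smaller share. As for IFIT1P1, how the counting split reads between such copies and genes of similar sequence is uncertain. Of 37 tested mitosis genes, 35 fell in UCSD-AML1 and 23 in ELF-153, and 0 rose in either line. A higher difference was called for 21 and a lower one for 0 (56.8% called beside 29.9% over all genes, median 2.12). Of the 21, 10 were called in UCSD-AML1 alone and 11 fell in both lines but more in UCSD-AML1. CCNA2, cyclin A, had 1253, 2190 and 1499 scaled reads in ELF-153 with DAC and 7932, 4453 and 4697 without, against 147, 104 and 105 in UCSD-AML1 with DAC and 6053, 6392 and 3682 without. No groups within a line overlapped, and the difference was 3.69 ± 0.40 (SE, limma adjusted p = 6.4e-05). CCNB2, cyclin B, had 75 reads in all in treated ELF-153 and 292 without DAC, against 3 in treated UCSD-AML1 and 222 without.

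For other mitosis genes the ELF-153 groups overlapped, in TOP2A through the libraries that stand apart. TOP2A, a topoisomerase, had 1290, 2692 and 1526 scaled reads in ELF-153 with DAC and 7396, 2016 and 2075 without, against 304, 223 and 137 in UCSD-AML1 with DAC and 16768, 16148 and 6667 without. In ELF-153 treated replicate 2 lay above untreated replicates 2 and 3, and the change of -0.85 was not called. Without the 4 libraries it was -0.54 with an adjusted p of 0.00425, and the difference was 5.43 in place of 5.00. ASPM, KIF18A and NDC80, genes of the spindle and kinetochore, showed the same untreated replicate 1 in ELF-153 (1090, 682 and 1180, against 142 to 271 in the other pair) and the same treated replicate 2 (620, 482 and 534, against 154 to 246). Their changes in ELF-153 were not called with or without these libraries, their levels in UCSD-AML1 were at most 26.9 with DAC and at least 256 without, and their differences without the 4 libraries were 5.96, 6.49 and 6.36, against 6.13, 6.12 and 5.64 with them.

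DNA replication genes followed in smaller steps. Of 45 tested, 41 fell in UCSD-AML1 and 35 in ELF-153. A higher difference was called for 19 and a lower one for 1, LIG1 (44.4% called beside 29.9% over all genes, median 0.82). ASF1B, a histone chaperone, had 744, 826 and 889 scaled reads in ELF-153 with DAC and 2026, 2372 and 2238 without, against 79.8, 103 and 64.2 in UCSD-AML1 with DAC and 851, 827 and 933 without, a difference of 1.98 ± 0.26 (SE, limma adjusted p = 0.000212). The origin licensing factor CDC6 and the chromatin assembly factor CHAF1B fell by 1.61 and 2.74 in ELF-153 and by 3.85 and 4.26 in UCSD-AML1. LIG1, a DNA ligase named after its values were seen, had a difference of -1.22 whose sign turned without retained-intron and processed transcripts (0.38, not called). In bulk RNA, fewer cycling cells and less of these transcripts per cell cannot be told apart.

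Outside the cell cycle, RAG2, a recombinase of lymphocytes, had 0 reads in UCSD-AML1 with DAC and 139, 112 and 99 scaled reads without, at least 127-fold lower, against 1 read in all in ELF-153 with DAC and 4 without. edgeR did not call this difference (adjusted p = 0.0814). RAG2 passed the filter on low values only with the untreated UCSD-AML1 libraries, so that its fall there is built in. ITGA4, the alpha chain of the adhesion receptor VLA-4, had 773, 1989 and 695 in ELF-153 with DAC and 950, 182 and 215 without, and 117, 87.5 and 72.1 in UCSD-AML1 with DAC and 2128, 2188 and 717 without. KIT, the stem cell factor receptor, had 239, 595 and 262 in ELF-153 with DAC and 692, 156 and 170 without, and 153, 134 and 81.1 in UCSD-AML1 with DAC and 1470, 1414 and 632 without. In both genes treated and untreated ELF-153 libraries overlapped through untreated replicate 1. Without the 4 libraries that stand apart, ITGA4 rose by 1.88 and KIT by 0.62 in ELF-153 (limma adjusted p = 2.79e-07 and 0.00231), which would place both among the opposite changes. The way these libraries were picked makes such p-values too small, so this placing is uncertain.

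Amino acid and stress genes controlled by ATF4 were among those that fell in UCSD-AML1. Of 26, 14 fell there and 11 in ELF-153, beside 26.7% and 18.1% of all genes. The list had 11 higher and 2 lower differences (median 0.49). The other 13 had no call, beside 29.9% called over all genes. At 96 h the list had 3 higher and 6 lower differences of 25 (median 0.03), beside 25.5% called over all genes. At that hour 6 fell in UCSD-AML1, beside 20% of all genes. SLC7A11, the cystine transporter, had 530, 693 and 482 scaled reads in ELF-153 with DAC and 645, 462 and 401 without, and 156, 137 and 104 in UCSD-AML1 with DAC and 2283, 2450 and 1169 without (difference 4.02 ± 0.41, SE, limma adjusted p = 3.38e-05). The tRNA synthetase gene WARS and the folate enzyme gene MTHFD2 fell in UCSD-AML1 by 1.37 and 1.49 without a call in ELF-153. The lower differences were PSAT1 and SLC7A1, named after their values were seen (-2.31 and -1.19). PSAT1 had at most 1 read in either group of UCSD-AML1 and was not called by edgeR or DESeq2, and the SLC7A1 call ended in 6 of 23 alternatives.

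The increases of largest size called in UCSD-AML1 alone were of genes that ELF-153 hardly expressed. CD207, the langerin of Langerhans cells, had 129, 129 and 125 scaled reads in UCSD-AML1 with DAC and 0 without, at least 128-fold higher, while ELF-153 had 4 reads in all with DAC and 0 without. PGC, a pepsinogen, had 189, 250 and 292 in UCSD-AML1 with DAC and 6.19, 2.88 and 1.19 without, while ELF-153 had 2 reads in all with DAC and 1 without. RNF152 and XKR4 rose in UCSD-AML1 to 485 and 551 reads in all, against 3 and 9 without DAC, and GNLY, a granule protein of killer cells, to 318 against 1. edgeR did not call the differences of CD207, PGC, XKR4 and GNLY, for which ELF-153 gives at most 4 reads in a group. These genes passed the filter on low values only with the treated UCSD-AML1 libraries, so that their rise there is built in.

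**Figure D4:**
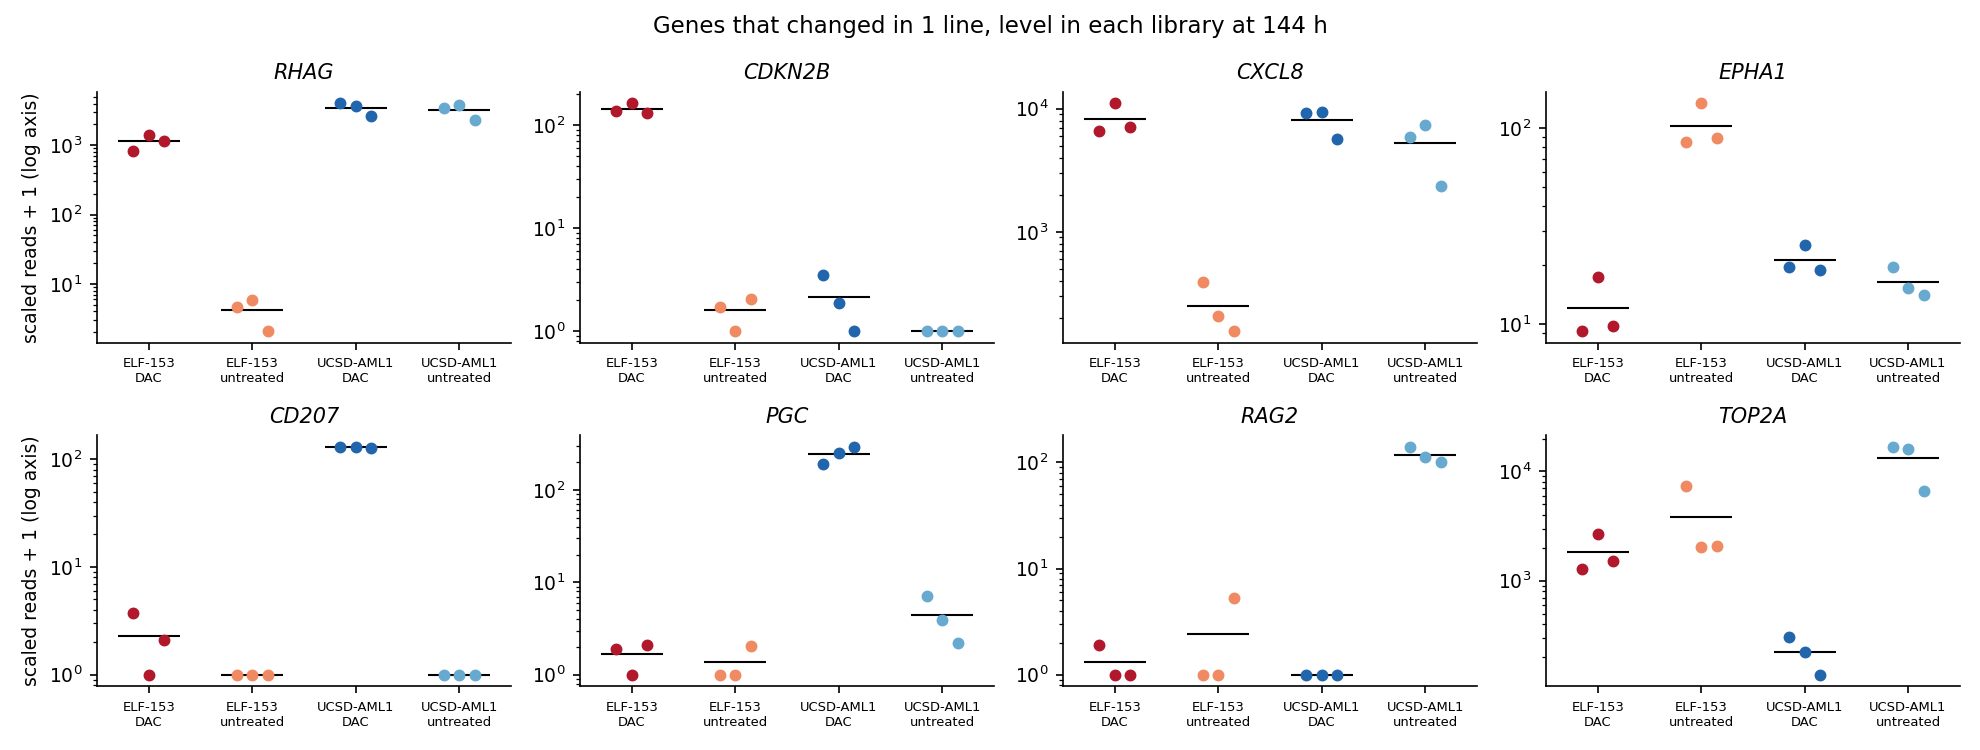
Level of 8 genes in each of the 12 libraries at 144 h, as scaled reads + 1 on a log axis; points are single libraries and the line is the mean of 3. RHAG, CDKN2B, CXCL8 and EPHA1 were called in ELF-153 alone, CD207, PGC, RAG2 and TOP2A in UCSD-AML1 alone.

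Of the cholesterol genes, 9 of 23 had a lower difference and 2 a higher one (47.8% called beside 29.9% over all genes, median -0.87). SREBF2, the master regulator of cholesterol synthesis, had 125, 101 and 124 scaled reads in ELF-153 with DAC and 147, 159 and 184 without, and 159, 147 and 145 in UCSD-AML1 with DAC and 51.3, 71.9 and 72.8 without (difference -1.69 ± 0.28, SE, limma adjusted p = 0.00128). The mevalonate kinase gene MVK fell in ELF-153 (-0.98) and rose in UCSD-AML1 (2.01). The 2 higher ones, STARD4 and IDI1 (2.89 and 1.23), were named after their values were seen. At 96 h, in separate libraries, 3 of the list had a lower and 2 a higher difference.

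Megakaryocyte and platelet genes rose in both lines, 25 of 31 in ELF-153 and 24 in UCSD-AML1. Of the 31, 7 passed the filter on low values only with the help of treated libraries, 2 of them only with those of ELF-153. A rise with DAC is built into these 7. In all, 13 of the 31 had a higher and 4 a lower difference (54.8% called beside 29.9% over all genes, median 0.87). The summed level of the list was 49900 to 63030 scaled reads per library in ELF-153 with DAC and 5688 to 11040 without. In UCSD-AML1 it was 186100 to 210600 with DAC and 38650 to 51380 without. ITGB3, the beta chain of the fibrinogen receptor, had 3036, 3076 and 3339 in ELF-153 with DAC and 31.9, 39.1 and 36.3 without, and 27435, 30992 and 26120 in UCSD-AML1 with DAC and 5313, 5017 and 5604 without. Its rise was 6.42 in ELF-153 and 2.41 in UCSD-AML1 on the log2 scale, a difference of 4.02 ± 0.20 (SE, limma adjusted p = 6.02e-08), although every treated library of ELF-153 stayed below every treated one of UCSD-AML1. TUBB1, the platelet tubulin, and PPBP, a platelet chemokine, had differences of 5.18 and 4.49 of the same kind.

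The 4 lower ones were VWF, PF4V1, F13A1 and NRGN, named after their values were seen. VWF, the von Willebrand factor, had 1382, 1153 and 1465 scaled reads in ELF-153 with DAC and 256, 432 and 404 without, against 30674, 39254 and 48825 in UCSD-AML1 with DAC and 1398, 1047 and 2622 without (difference -2.73 ± 0.43, SE, limma adjusted p = 0.000931). PF4V1, a close copy of PF4 and thus uncertain, rose in both lines, and F13A1, the A chain of factor XIII, rose to 1168 reads in all in UCSD-AML1 with DAC, against 93 without, with 1 read or 0 in ELF-153. The NRGN call ended in 12 of 23 alternatives, edgeR did not call PF4V1 or F13A1, and DESeq2 did not call F13A1.

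Erythroid genes rose in 19 of 27 cases in ELF-153 and 14 in UCSD-AML1. There were 12 higher and 2 lower differences (51.9% called beside 29.9% over all genes, median 0.53). Of the 27, 9 passed the filter on low values only with the help of treated libraries, 2 of them only with those of ELF-153. A rise with DAC is built into these 9. GATA1, the factor of erythroid and megakaryocytic cells, had 1037, 1153 and 1310 scaled reads in ELF-153 with DAC and 31.9, 49.7 and 17.1 without, and 1597, 2021 and 2448 in UCSD-AML1 with DAC and 462, 461 and 823 without (difference 3.39 ± 0.47, SE, limma adjusted p = 0.000375). HBD, delta globin, had 922, 1085 and 1078 in ELF-153 with DAC and 44.3, 47.4 and 83.3 without, and had no called change in UCSD-AML1, where its 6 libraries lay between 71.4 and 106. HBG1, a fetal globin whose reads can be shared with its twin HBG2, rose in both lines, by 9.69 in ELF-153 and 6.42 in UCSD-AML1. The 2 lower ones, KLF1 and EPB41, were named after their values were seen: KLF1, an erythroid factor, rose in both lines (3.36 and 5.25), and EPB41 fell in ELF-153 (-1.01), with a call that ended in 11 of 23 alternatives.

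Cell cycle inhibitors and p53 targets held 11 higher and 2 lower differences among 31 (41.9% called beside 29.9% over all genes, median 0.27). Of the 31, 5 passed the filter on low values only with the help of treated libraries, 2 of them only with those of ELF-153. BTG2, an antiproliferative p53 target, had 4071, 4684 and 4909 scaled reads in ELF-153 with DAC and 274, 232 and 286 without, and 2279, 2533 and 2405 in UCSD-AML1 with DAC and 805, 745 and 713 without (difference 2.43 ± 0.21, SE, limma adjusted p = 7.4e-06). CDKN1A, the inhibitor p21, rose in both lines (2.53 and 1.82) and had a difference of 0.71 ± 0.61 that was not called. BAX and TP53INP1, named after their values were seen, had lower differences (-1.08 and -2.02), and BAX and TP53INP1 lost their calls in 4 and 12 of 23 alternatives. Of 17 BCL2 family genes 6 were higher and 1, BAX, lower (41.2% called beside 29.9% over all genes). BIK and BCL2A1 fell in UCSD-AML1 (-1.83 and -2.61) and BOK rose in ELF-153 (3.56).

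Of the DNA methyltransferases, which decitabine traps, DNMT1 fell in both lines (-0.93 and -0.69) and so did DNMT3B (-2.83 and -1.88), neither with a called difference (-0.24 ± 0.32 and -0.94 ± 0.60). DNMT3A had a called difference of 1.07 ± 0.35 (SE, limma adjusted p = 0.0369) that ended in 15 of 23 alternatives. Of the 19 genes in the list 8 had a higher and 2 a lower difference (52.6% called beside 29.9% over all genes, median 0.99). The lower ones included MBD3, a protein of the methyl-CpG binding domain family, which fell in ELF-153 (-1.32). ZBTB33, a reader of methylated DNA, fell in UCSD-AML1 (-2.22), and in ELF-153 its change of 1.44 was called without the 4 libraries that stand apart (1.62, limma adjusted p = 7.12e-06). MYB, a progenitor factor, had a difference of 1.12 that was not called with all 12 libraries and was called without the 4 (1.22, limma adjusted p = 0.0422).

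Ribosome biogenesis genes fell in both lines, 21 of 40 in ELF-153 and 29 in UCSD-AML1, with 9 higher and 4 lower differences, a called share of 32.5% beside 29.9% over all genes, and a median of 0.08 beside 0.21. RRN3, an initiation factor of ribosomal RNA transcription, rose in ELF-153 by 2.35, and UTP20 and NOC3L had differences of 1.95 and 2.05; the NOC3L call ended with the mitochondrial share as a covariate. The 4 lower ones, named after their values were seen, were POLR1A, RRP12, MRTO4 and PPAN, whose calls ended in 1, 9, 8 and 12 of 23 alternatives. Of 15 mitochondrially encoded genes only MT-CO3, a subunit of cytochrome oxidase, had a called difference (1.06). Markers of other cell types were mixed. Of 10 tested lymphoid genes 4 had a higher difference (CD3G, CD2, NKG7 and CD4) and 3 a lower one (GNLY, PAX5 and CD3D). The called share was 70.0%, beside 29.9% over all genes. Of 8 stromal, endothelial or epithelial genes 1 was higher (COL3A1), 3 were lower (KDR, COL1A1 and CDH5) and 4 had no call. Of the lymphoid genes 2, and of the other list 3, passed the filter on low values only with the help of treated libraries. In each list 1 of them passed only with those of ELF-153. A rise with DAC is built into these members. CD2, NKG7, CD4, CD3D and CDH5 were named after their values were seen. Neither edgeR nor DESeq2 called CD3G, CD4, COL3A1, KDR, COL1A1 or CDH5, edgeR did not call GNLY, and the CD3D call ended in 9 of 23 alternatives. The summed lymphoid level was 1815 to 2285 scaled reads in ELF-153 with DAC and 1402 to 2053 without, and 1559 to 1651 in UCSD-AML1 with DAC and 1389 to 1765 without. The summed stromal, endothelial and epithelial level was 278.9 to 326.1 in ELF-153 with DAC and 270 to 488 without, and 3390 to 4291 in UCSD-AML1 with DAC and 1731 to 2112 without. The part of other cell types in the differences was not tested.

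**Figure D5:**
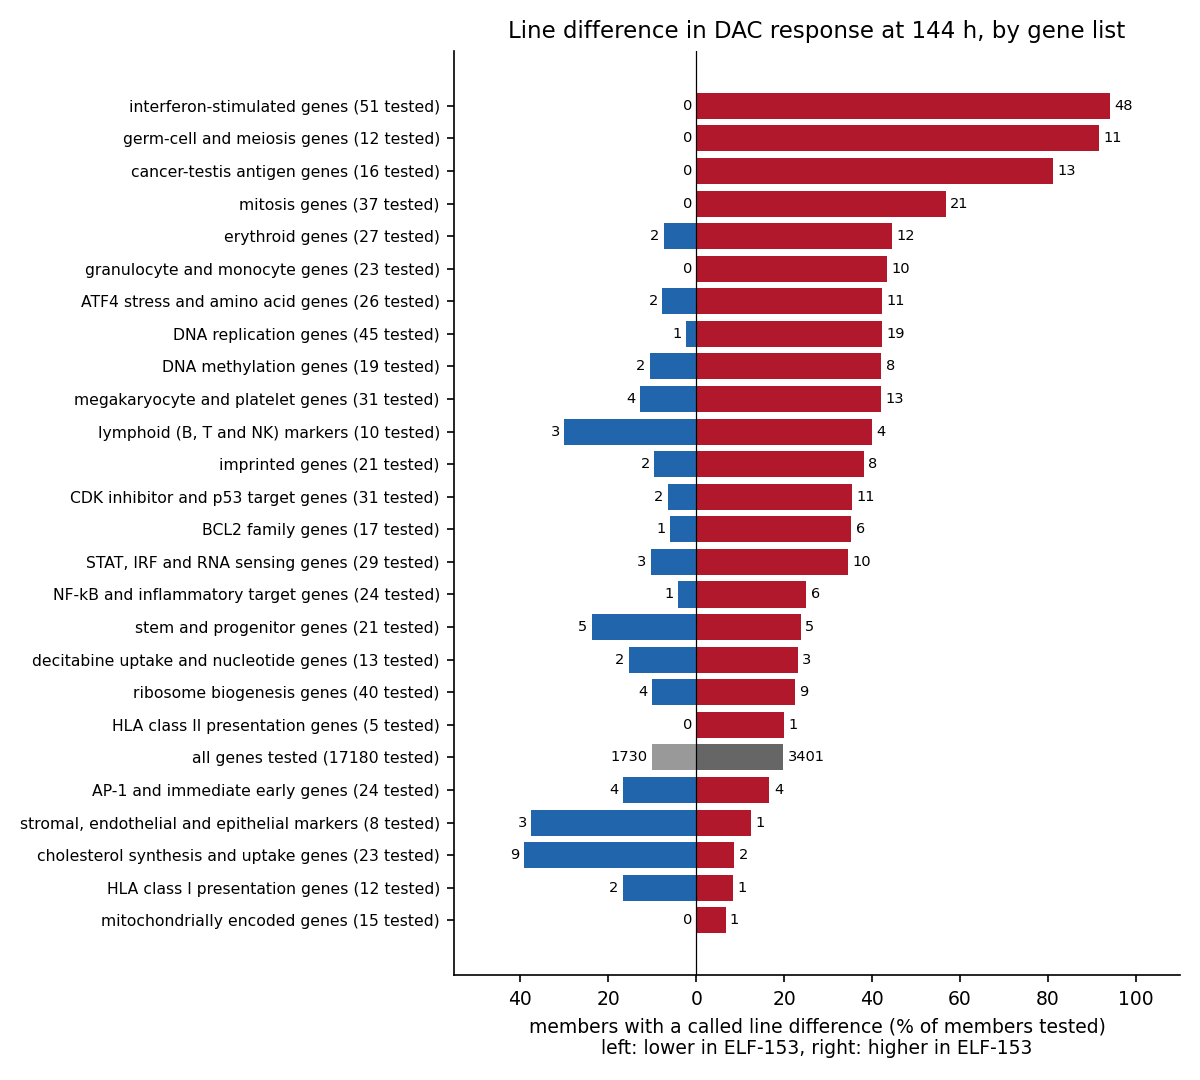
Share of the tested members of each gene list with a called line difference, to the right for higher in ELF-153 and to the left for lower; numbers at the bars are genes, and the grey bar gives all 17180 tested genes. Interferon-stimulated genes reach 48 of 51 to the right, and cholesterol genes 9 of 23 to the left. The bars of cancer-testis and germ-cell genes rest on 16 and 12 members that passed the filter largely through treated libraries.

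At 96 h, measured in another 12 libraries of the same lines and treatment, 4485 of 17609 genes (25.5%) had a line difference, 2968 higher (16.9%) and 1517 lower (8.61%). The DAC effect was called for 33.3% of genes in ELF-153 (20.5% up, 12.8% down) and for 39.8% in UCSD-AML1 (19.8% up, 20% down). Of the 264 genes of the first opposite class tested at 96 h, 227 had a called difference of the same direction there, as did 107 of the 130 of the second, and 0 in either class had one of the other direction. Of 51 interferon-stimulated genes 42 had a higher difference at 96 h and 0 a lower one, with a median of 2.61; 43 rose in ELF-153, while in UCSD-AML1 13 fell and 4 rose. IFI44L had a difference of 8.25, with changes of 7.34 in ELF-153 and -0.91 in UCSD-AML1, and OASL one of 6.55, with 5.92 and -0.63. Mitosis genes had 21 higher and 0 lower differences of 39 at 96 h. Megakaryocyte genes had 9 higher and 7 lower of 30, with a median of 0.14. Ribosome biogenesis genes had 12 higher and 0 lower of 40, with a median of 0.62, and cell cycle inhibitors and p53 targets 7 higher and 5 lower of 31, with a median of -0.22. The tables of the 2 harvests were scaled separately, so changes are set side by side and no level is compared between them.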

How the data were processed

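RNA-seq libraries of 2 AML cell lines were compared, 12 of them harvested at 144 h and, for the values at 96 h, another 12. Per the labels' protocols, ribosomal RNA was depleted and strand-specific libraries were sequenced on an Illumina HiSeq. The submitters' processing notes list build hg19 and the tools HTSeq, STAR, TopHat2, DESeq2 and FastQC; the sources used here give neither their versions and roles nor the use of strand in counting.

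The deposited tables hold, per the values, a signal for each transcript: read counts that the authors divided by a size factor per library. All values were whole multiples of 1 step per library (tolerance 0.01), which gave back whole reads and a depth of 15096909 to 28528757 reads at 144 h. Such values are not raw counts, so limma 3.58.1 (R 4.3.3) was the main test and edgeR 4.0.16 (quasi-likelihood, TMM) and DESeq2 1.42.0 on the recovered reads were alternatives. Of 204940 transcripts 181859 (88.7%, with 97.8% of the value) matched GENCODE 29, used for names only, and were summed to 52994 genes. Levels are scaled reads, not divided by length, and are not compared between genes.

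Genes with a sum of at least 10 in at least 3 libraries were kept. Group means of log2(sum + 1) were fitted over the 12 libraries, the difference of both DAC changes was tested with a moderated, trended and robust variance, and p-values were adjusted (Benjamini-Hochberg) over 18293 features, 1113 of them unmatched transcripts, with a threshold of 0.05. Fold changes on this scale understate those of low genes. For a group with 0 reads a bound against 3 reads over the group is given, and for 1 to 3 reads a ratio with its 95% interval; both cover counting error only. Libraries with a larger spread of counts against the other pair of their group (47 to 208.3 chi-square per degree of freedom, against 3.9 to 8.5 within the pair) are said to stand apart.

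Genes named were the 5 protein-coding genes of largest difference in each of 6 response classes with a group mean of at least 100, the 2 such other genes of each opposite class, the 3 members of smallest adjusted p in each list and a fixed set of 15, some left out for length; others are marked where they appear, and a few genes are not reported here. The members, lists and rules were chosen with earlier results of these data known. Alternatives were the tool and scaling, the filter, the pseudocount, a replicate block, the mitochondrial ribosomal share, transcript types, leaving out each library, and, added after seeing the data, the 8 libraries without those that stand apart. The scripts were tested on simulated data. Python 3.11.15, pandas 2.3.3, scipy 1.17.1 and matplotlib 3.10.9 were used.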

Additional observations from a re-analysis of the deposited data

Results flagged for a closer look

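Each value below is a difference of log2 changes with DAC (ELF-153 minus UCSD-AML1) at 144 h that passed limma's test of the difference itself at an adjusted p below 0.05, which is what brought it here. Where a gene has 3 reads or fewer in a group, its value depends on the pseudocount and is no bound.

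IFI44L (11.87), HIST1H4C (9.46), SUCNR1 (8.17), IFIT1 (8.04), ADAMTS3 (8.02), IFIT1P1 (6.46), AC104232.1 (6.44), OASL (8.01), MX1 (4.47), STAT2 (2.24), DHX58 (3.69), CTSS (1.72), CPOX (3.44), CEBPE (3.34), MECOM (4.95) and LMO2 (2.50) were the named genes that rose in ELF-153 and fell in UCSD-AML1.

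The same class further held THY1 (4.29), TP53I3 (2.13), SAMHD1 (3.47), INPP5F (2.50), IFIH1 (4.19) and STARD4 (2.89).

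SYNDIG1 (-8.07), IGSF10 (-6.07), COL5A1 (-5.78), C3orf80 (-5.20), NEURL1B (-4.87), PIK3CD-AS2 (-4.82), IL12A-AS1 (-4.28), MVK (-2.99) and HLF (-4.30) were the named genes that fell in ELF-153 and rose in UCSD-AML1.

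RHAG (8.08), STAB1 (7.35), MKRN3 (7.18), TMEM185B (6.79), GPR15 (6.75), RSAD2 (6.20), IRF9 (2.96), B2M (1.90), HBD (4.17), CYBB (5.62), GAGE1 (4.37), MAGEA10 (3.90), TUBA3C (5.27), HIST1H1T (4.97), CXCL8 (4.36) and EGR3 (6.18) were the named genes that rose in ELF-153 without a call in UCSD-AML1.

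The same class further held ATF3 (2.10), CDKN2B (5.65), RRN3 (1.80), BOK (3.38), PEG10 (4.81), CD3G (3.94), COL3A1 (3.59), IRF7 (2.43), IRF8 (4.95), HOXB4 (2.19), TYMP (3.51), NKG7 (2.40) and KLF2 (1.45).

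SHISAL1 (-3.97), SPON2 (-3.84), C4orf50 (-3.82), AGMAT (-3.62), EPHA1 (-3.50), MBD3 (-1.37), SLC29A1 (-2.39), MYC (-1.34), EGFL7 (-3.37), SPINK2 (-1.78), EPB41 (-1.17), PSAT1 (-2.31), SLC7A1 (-1.19), POLR1A (-0.92) and PPAN (-1.10) were the named genes that fell in ELF-153 without a call in UCSD-AML1.

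CD207 (-6.01), RNF152 (-5.95), GNLY (-5.71), PGC (-5.61), XKR4 (-5.38), CALR (-0.96), DUSP4 (-2.01), SREBF2 (-1.69), PAX5 (-1.69), KDR (-3.26), COL1A1 (-2.37), STAT5A (-1.29), MAVS (-1.02), RUNX1 (-1.24), F13A1 (-3.25) and NRGN (-1.16) were the named genes that rose in UCSD-AML1 without a call in ELF-153.

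The same class further held BAX (-1.08), JUND (-0.94), IER2 (-0.94), CD3D (-2.06), CDH5 (-1.55) and RRP12 (-1.39).

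RAG2 (6.38), ASPM (6.13), KIF18A (6.12), ITGA4 (5.65), NDC80 (5.64), TOP2A (5.00), NOC3L (2.05), SLC7A11 (4.02), WARS (1.67), MTHFD2 (1.88), ZBTB33 (3.66), BIK (1.32), BCL2A1 (4.58), MT-CO3 (1.06), KIT (3.54) and IFITM1 (2.08) were the named genes that fell in UCSD-AML1 without a call in ELF-153.

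The same class further held UBE2L6 (0.96), IDI1 (1.23), CMPK1 (1.73) and CD4 (0.95).

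ITGB3 (4.02), TUBB1 (5.18), PPBP (4.49), S100A9 (1.59), SSX1 (5.41), TDRD9 (6.49), EBI3 (2.67), NFKBIA (1.03), BTG2 (2.43), GATA1 (3.39), HBG1 (3.27), CD2 (2.55) and NR4A2 (1.12) were the named genes that rose in both lines and more in ELF-153.

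NLRC5 (-0.80), SOCS3 (-1.00), VWF (-2.73), PF4V1 (-5.56), KLF1 (-1.89), ZC3H12A (-0.93), TP53INP1 (-2.02) and DUSP1 (-0.92) were the named genes that rose in both lines and more in UCSD-AML1.

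UCK2 (-0.86), LIG1 (-1.22) and MRTO4 (-0.80) were the named genes that fell in both lines and more in ELF-153.

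CCNA2 (3.69), CCNB2 (3.48), ASF1B (1.98), CDC6 (2.24), CHAF1B (1.51) and UTP20 (1.95) were the named genes that fell in both lines and more in UCSD-AML1.

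DNMT3A (1.07) and IFI16 (3.86) were the named genes that were called in neither line alone.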

How the results depend on the processing

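The 48 interferon-stimulated genes with a higher difference numbered 43 to 48 when each library was left out, and 24 to 33 of them changed in opposite directions over all alternatives. Of 149 named genes with a called difference, 93 were called in every one of the 23 alternatives that gave a value; over all alternatives 3269 values of named genes kept direction and call, 288 lost the call, 5 gained it and 18 changed sign. Of the other list counts 651 stayed within 1.5 times and 200 did not.

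edgeR called 2039 genes higher in place of 3401, 211 in the second opposite class in place of 130, 526 rising in ELF-153 alone in place of 931, 897 falling in UCSD-AML1 alone in place of 1534, 1 cancer-testis gene in place of 13 and 4 germ-cell genes in place of 11. DESeq2 gave 206 for the second opposite class and limma with TMM 208, and DESeq2 called 1 cancer-testis and 6 germ-cell genes; a filter of 50 left 8 and 6. The mitochondrial ribosomal share as a covariate left 1724 higher and 744 lower differences, 159 and 59 opposite genes, 420 rising and 143 falling in ELF-153 alone, and 421 rising and 566 falling in UCSD-AML1 alone. The 8 libraries gave 2630 lower differences, 1307 and 366 opposite genes and 7 cancer-testis and 7 germ-cell genes. With the other line under 0.5, 542 rose in ELF-153 alone and 861 fell in UCSD-AML1 alone. The cause of these shifts was not tested.

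Leaving out 1 library each gave 1719 to 4492 higher and 999 to 2431 lower differences. It gave 149 to 833 and 59 to 218 opposite genes, 391 to 1259 rising and 249 to 801 falling in ELF-153 alone, and 414 to 922 rising and 730 to 1868 falling in UCSD-AML1 alone. Cancer-testis genes numbered 7 to 13 and germ-cell genes 6 to 12.

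Signs turned for uncalled differences. With the mitochondrial share as a covariate GATA2 was 0.17, MYB -0.53, DNMT1 0.13, IFITM2 0.32 and SIGLEC1 1.84. SIGLEC1 was -0.65 to 0.81 without single libraries (0.33 without untreated UCSD-AML1 replicate 1, 0.22 without treated ELF-153 replicate 2 or 3), and CDKN1A was -0.28 with a pseudocount of 8. TNFAIP3 was -0.15 with edgeR, -0.14 with DESeq2, -0.17 with limma and TMM, -0.12 with the 8 libraries and -0.12 to 0.18 without single libraries (-0.00 without treated UCSD-AML1 or untreated ELF-153 replicate 1). LIG1 was 0.38 without retained-intron and processed transcripts.

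With the replicate number as a block 5137 genes were called, 4659 of them among the 5131. Deviations of treated and untreated libraries of the same number correlated at -0.23, -0.31 and 0.16 in ELF-153. In UCSD-AML1 they correlated at 0.13, 0.12 and 0.26. Same-numbered pairs were thus all above 0.1 in UCSD-AML1 and not in ELF-153. The largest correlation of any pair, 0.45, was that of treated replicate 2 with untreated replicate 1 in ELF-153, which both stand apart. The numbers were not taken to pair the libraries of the comparison. With the block, DNMT3A, SPINK2, EPB41 and TP53INP1 lost their calls (adjusted p 0.0541, 0.0541, 0.0599 and 0.0529), and the DAC effect in UCSD-AML1 had 3350 higher and 4609 lower genes in place of 3437 and 4594. With 3 technical libraries a group, 1 of them apart, the spread behind each p is poorly known. Depth limits genes with a few reads in a group, whose differences edgeR often did not call.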
